A study of Mus musculus with 11 samples.

Results

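The 10 genes described here stood far higher in 1 clone than in the other 10 among 11 clonal lines of mouse embryonic stem cells: Gpbar1, Npc1l1, Slc35e4, Ly6a, Lrrc15, Trp63, Sox21, Nfkbiz, Fbxl22 and Pmel. They are 10 of the 22369 genes in the read count table. They were picked from the table because their highest clone lay several-fold above the rest, so their own levels are given as a description, with no test. The rule of choice did not use the values of their neighbours on the chromosome or of other genes of their pathways and families. Nor did it use the sequence before their start sites. The pathway and marker lists were, however, drawn up with earlier results of these data known.

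The 11 lines derive from EBRTcH3, a mouse embryonic stem cell line that makes the tetracycline-controlled transactivator from the ROSA26 promoter. Each line held several barcoded reporters, driven by the mouse PGK promoter and inserted with the piggyBac transposon. It grew out of 1 colony taken after sorting for high eGFP, and was kept with leukemia inhibitory factor, the MEK inhibitor PD0325901 and the GSK-3 inhibitor CHIR99021 in medium conditioned by BRL cells. Each clone gave 1 mRNA library, and the clones, numbered 16 to 26 as in the labels, form 1 group with no other treatment. Libraries held 10846005 to 16868500 counts in genes (median 14378599). Levels are in CPM, counts per 1000000 counts of the library size after TMM scaling, and 3 counts, taken as the floor of detection, correspond to 0.173 to 0.284 CPM. In bulk RNA, a few cells with a high level and many cells with a low level cannot be told apart.

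A gene that is silent in a stem cell is usually held so by its promoter's DNA methylation or by Polycomb or H3K9 methylation, and by the lack of the factors that read its enhancers. The listed genes belong mostly to differentiated tissues, among them epidermis, intestine, muscle, pigment cells and blood. The piggyBac transposon that carried the reporters integrates at the tetranucleotide TTAA, and the integration sites were not used here.

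The embryonic stem cell label was borne out by its markers in every clone. The 8 genes Pou5f1, Sox2, Nanog, Esrrb, Tfcp2l1, Klf4, Zfp42 and Tdgf1 summed to 7165 to 9027 CPM. The keratinocyte list summed to 10.9 to 18.8 CPM, the fibroblast list to 12.03 to 26.9 and the melanocyte list to 67.2 to 138, of which nearly all was Mitf (65.4 to 134 CPM).

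Before the levels, the sequences ahead of the start sites of Gpbar1, Npc1l1, Slc35e4 and Sox21 are shown, because these genes span the range of CpG content among the listed genes and because Npc1l1 and Slc35e4 were high in the same clone on the same chromosome. CpG dinucleotides are the sites of DNA methylation, and promoters rich in them usually stay unmethylated. Each line gives the 250 bases before the RefSeq start site on build GRCm38.p6, 5′ to 3′ on the gene's own strand, with CpG dinucleotides in capitals. The table held a promoter for 6 of the 10 genes.
Gpbar1, chr1:74278350-74278599, plus strand: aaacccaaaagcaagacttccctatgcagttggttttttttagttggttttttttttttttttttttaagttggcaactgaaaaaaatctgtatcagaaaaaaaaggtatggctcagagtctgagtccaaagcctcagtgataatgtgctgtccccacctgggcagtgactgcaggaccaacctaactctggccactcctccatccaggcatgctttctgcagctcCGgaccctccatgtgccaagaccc
Npc1l1, chr11:6230246-6230495, minus strand: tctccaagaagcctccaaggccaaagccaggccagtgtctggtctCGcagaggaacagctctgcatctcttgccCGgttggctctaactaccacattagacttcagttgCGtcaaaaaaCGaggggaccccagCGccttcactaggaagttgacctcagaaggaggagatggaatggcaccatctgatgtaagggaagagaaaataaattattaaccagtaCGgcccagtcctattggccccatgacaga
Slc35e4, chr11:3914665-3914914, minus strand: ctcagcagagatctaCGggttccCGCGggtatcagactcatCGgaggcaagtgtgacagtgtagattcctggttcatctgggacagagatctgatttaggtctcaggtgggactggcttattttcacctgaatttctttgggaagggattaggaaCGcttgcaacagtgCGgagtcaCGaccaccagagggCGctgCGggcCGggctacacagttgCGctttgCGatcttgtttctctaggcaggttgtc
Sox21, chr14:118237031-118237280, minus strand: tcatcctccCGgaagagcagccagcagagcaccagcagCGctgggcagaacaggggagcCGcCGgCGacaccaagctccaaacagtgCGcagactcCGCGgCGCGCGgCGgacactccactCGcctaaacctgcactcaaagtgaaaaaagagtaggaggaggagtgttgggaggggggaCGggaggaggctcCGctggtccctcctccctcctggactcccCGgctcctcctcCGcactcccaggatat

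The Gpbar1 stretch held 1 CpG, and 7.87% of the 32851 promoters in the table had fewer. Npc1l1 held 6, the median over all promoters, and Fbxl22 held 4 (37.8% had fewer). Lrrc15, Slc35e4 and Sox21 held 11, 12 and 17, with 64.4%, 66.5% and 76.5% of promoters below them. The listed genes with a mean under 1 CPM outside the peak clone were Gpbar1, Fbxl22, Npc1l1 and Trp63, and no promoter was held for Trp63. The first 3 had fewer CpG than Lrrc15, Slc35e4 and Sox21. This is a description of 6 promoters, and a link between CpG content and level was not tested. In the full windows of 300 bases, from 250 before to 50 after the start, a TATAAA on either strand was in 0 of the 6 and in 13.6% of all promoters. The palindrome TTAA was in 4 of the 6 (Gpbar1, Fbxl22, Lrrc15 and Npc1l1) and in 52.4% of all promoters.

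The membrane receptor and transporters are given first. Gpbar1 (ENSMUSG00000064272, chromosome 1) encodes the cell-surface receptor for bile acids, known in gall bladder, intestine and macrophages. Reads on it numbered 460 in clone 24. They numbered 2 in clones 16 and 21, 1 in clones 20, 25 and 26, and 0 in clones 17, 18, 19, 22 and 23. Clone 24 thus stood alone, and the other 10 were below the floor. Its level there was 29.0 CPM (95% exact Poisson interval 26.4 to 31.8, which covers counting error only) against 0.0553 ± 0.0675 CPM in the other 10 (mean ± SD, n = 10). Against the second highest clone the ratio was 153, with a counting interval of 42.2 to 1270.

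Npc1l1 (ENSMUSG00000020447, chromosome 11) encodes the sterol transporter through which the intestine takes up cholesterol, the target of ezetimibe. It had 349 reads in clone 20, 16 in clone 22, 11 in clone 26 and 5 to 10 in the other 8. The level was 28.9 CPM (interval 25.9 to 32.1) in clone 20 against 0.591 ± 0.192 CPM in the other 10 (n = 10), and 28.7 times that of clone 22, the second highest. Among those 10 clones the coefficient of variation was 32.5%, and counting alone gives 34.4%, so no spread beyond counting was seen among them.

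Slc35e4 (ENSMUSG00000048807, chromosome 11) is a little-studied member of the SLC35 family, most of whose characterised members carry nucleotide sugars into the Golgi or endoplasmic reticulum. It too was highest in clone 20, with 428 reads against 41 to 87 in the other 10. The level was 35.4 CPM (32.1 to 38.9) in clone 20 and 4.28 ± 0.674 CPM elsewhere (n = 10; lowest 3.18 in clone 18, median 4.17, highest 5.47 in clone 22). Both genes were above the floor in every clone, Slc35e4 at the higher level, and its other 10 values varied by 15.7% where counting gives 12.8%.

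Proteins of the cell surface and matrix had a wider spread outside the peak clone. Ly6a (ENSMUSG00000075602, chromosome 15) encodes Sca-1, a GPI-anchored antigen of haematopoietic and other progenitor cells. It had 962 reads (55.5 CPM, interval 52.1 to 59.2) in clone 19. The other clones had 58 reads in clone 17, 37 in clone 26, 30 in clone 16, 8 to 27 in a further 6, and 0 in clone 24, where the floor of 3 counts is 0.189 CPM. Their mean was 1.68 ± 1.35 CPM (n = 10), a coefficient of variation of 80.1% where counting gives 20.7%. The gene thus varied between clones apart from its peak.

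Lrrc15 (ENSMUSG00000052316, chromosome 16) encodes a membrane protein with leucine-rich repeats, known from activated fibroblasts. Clone 19 had 1847 reads, clone 26 had 254, and the other 9 had 28 to 116. The levels were 107 CPM (102 to 112) in clone 19, 17.8 in clone 26, 7.52 in clone 25 and 1.90 in clone 21, the lowest. Clone 26 was thus a second step, 2.36 times the third, and the mean outside clone 19 was 6.20 ± 4.42 CPM (n = 10). In clone 19 the fibroblast marker list also had its highest sum, 26.9 CPM (lowest 12.03, in clone 26, which had the second highest Lrrc15; median 16.04), mainly from Pdgfrb (19.3 CPM) and Col1a1 (4.50 CPM). In that clone 5 of its 10 genes, including Dcn, Lum, Col3a1 and Fap, had 0 counts, and Col1a2 had 4. Thy1 and Twist1, at 1.79 and 1.04 CPM, lay below their means over all clones (3.04 and 2.17). The primitive endoderm and trophoblast lists also had their highest sums in clone 19, at 719 CPM (lowest 367) and 121 CPM (lowest 60.05). Most of these sums came from Sparc (472 CPM), Lama1 (234), Tfap2c (76.3) and Krt8 (34.6), while Col4a1 and Eomes, at 8.37 and 5.31 CPM, lay below their means over all clones (24.2 and 10.2). The part of these lists in the levels of Lrrc15, Ly6a and Trp63 was not tested.

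Transcription factors and a nuclear cofactor formed the next group. Trp63 (ENSMUSG00000022510, chromosome 16) encodes p63, the p53 relative that specifies the basal cells of stratified epithelia. It had 693 reads in clone 19, 8 in clones 21 and 22, 4 in clones 20 and 23, 3 in clone 17, 2 in clones 18, 25 and 26, and 0 in clones 16 and 24. The level was 40.02 CPM (37.1 to 43.1) in clone 19 and 0.228 ± 0.186 CPM in the other 10 (n = 10), where 5 clones were under the floor. The ratio to clone 21, the second highest, was 73.6 (counting interval 37.1 to 171).

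Sox21 (ENSMUSG00000061517, chromosome 14) encodes an HMG-box factor of the SoxB2 group, which opposes SoxB1 factors such as Sox2 in neural progenitors. Reads numbered 1404 in clone 16 and 232 to 466 in the other 10. The levels were 133 CPM (126 to 139.9) in clone 16 and 22.5 ± 5.32 CPM elsewhere (n = 10), from 14.1 in clone 19 to 30.3 in clone 20 (median 21.1). Here the gene was clearly expressed in every clone and clone 16 stood 4.39 times above the next.

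Nfkbiz (ENSMUSG00000035356, chromosome 16) encodes IkappaB-zeta, a nuclear cofactor of NF-kB that is induced by inflammatory signals. It had 374 reads in clone 24 and 40 to 90 in the other 10. Its level was 23.6 CPM (21.2 to 26.1) in clone 24 and 4.23 ± 0.780 CPM elsewhere (n = 10), from 2.51 in clone 22 to 5.20 in clone 19. Gpbar1 and Nfkbiz shared clone 24 as the peak but lie on different chromosomes.

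The last 2 genes were highest in clone 26. Fbxl22 (ENSMUSG00000050503, chromosome 9) encodes an F-box protein of SCF ubiquitin ligases known from heart muscle. It had 517 reads in clone 26 and 0 to 7 in the other 10, that is 36.2 CPM (33.1 to 39.4) against 0.277 ± 0.148 CPM (n = 10). The other 10 varied by 53.5% where counting gives 50.7%. Pmel (ENSMUSG00000025359, chromosome 10) encodes the protein that forms the amyloid fibrils of melanosomes, the pigment granules. Reads numbered 2452 in clone 26, 871 in clone 25 and 244 to 457 in the other 9. The levels were 172 CPM (165 to 178) in clone 26, 65.5 in clone 25, 28.7 in clone 22 and 17.95 in the lowest, clone 21. Clone 25 lay 2.28 times above the third clone, so the other 9 formed the low group.

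**Figure D1:**
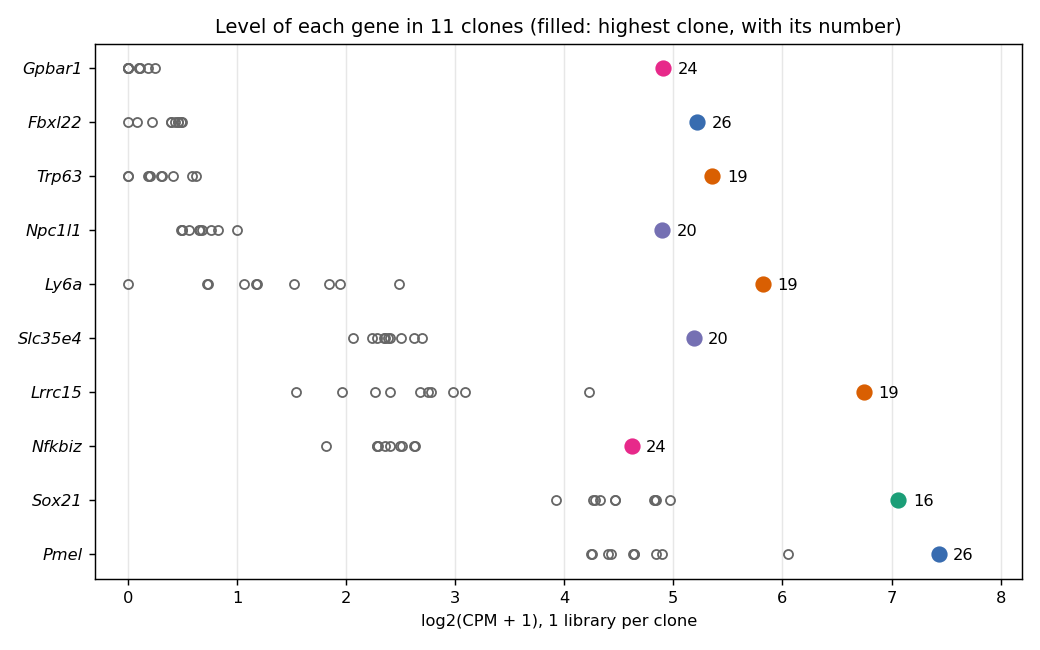
Level of each listed gene, as log2(CPM + 1) on the horizontal axis, in the 11 clones, 1 library each. The filled point is the highest clone with its number and the open points are the other 10. Gpbar1, Fbxl22, Trp63 and Npc1l1 are near 0 outside that clone, while Slc35e4, Nfkbiz, Sox21 and Pmel start from 2.51 CPM or more.

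Over the table, 68 of the 12479 tested genes, those whose mean reached 1 CPM (0.545%), had a ratio of highest to second highest clone at least that of Pmel, 2.62, the lowest of the listed genes. For this ratio a second value under 3 counts was set to the floor, which gives 102 for Gpbar1. The listed genes held ranks 1, 2, 3, 6, 9, 14, 16, 22, 25 and 68, and the median gene had a ratio of 1.08. Just inside that limit lay Dcdc2a, Zswim5, Pkd1l2, Osbpl3 and Aldh1a2 (2.63 to 2.73), and just outside Slc44a4, Masp2, Il1rl2, Rftn1 and Pou2f3 (2.61 to 2.57). Of the 68 genes 30 peaked in clone 19, 11 in clone 17, 7 in clone 16, 6 each in clones 24 and 26, 2 in clone 20 and 0 in clone 25. The listed genes peaked in clones 19 (3 genes), 20, 24 and 26 (2 each) and 16 (1). All 10 passed the mean of 1 CPM, but Gpbar1, Fbxl22, Trp63 and Npc1l1 did so only through their peak clone.

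**Figure D2:**
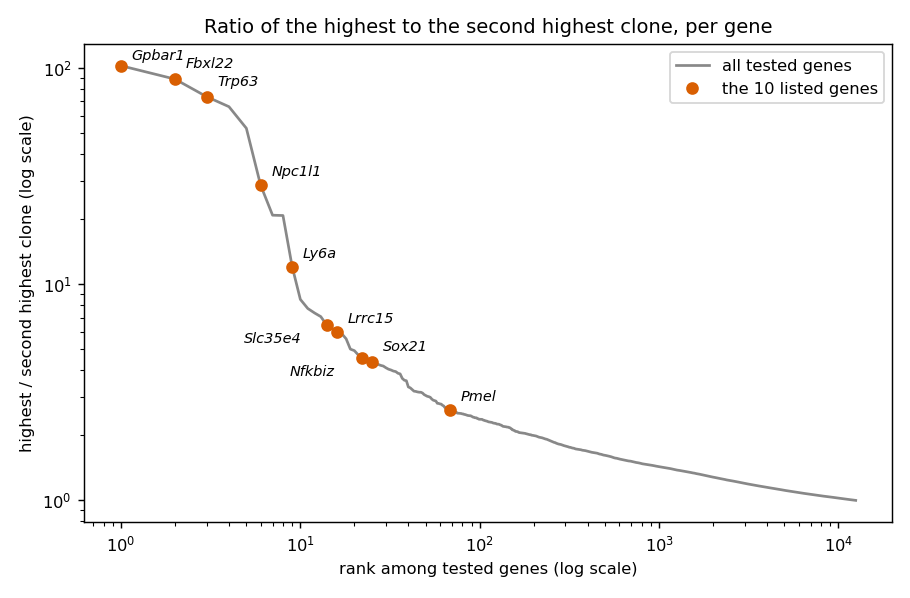
Ratio of the highest to the second highest clone (vertical, log scale) against the rank of the gene by that ratio (horizontal, log scale) for the 12479 tested genes, drawn as a line. Points are the 10 listed genes, from Gpbar1 at rank 1 to Pmel at rank 68.

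The next comparison asked whether neighbouring genes were also higher in the clone where a listed gene peaked. Neighbours were the 10 nearest tested genes on each side, 20 per gene and 200 places in all, held by 186 different genes. Of the 200 places 0 were called higher and 0 lower in the peak clone by the quasi-likelihood test of edgeR against the remaining 10 clones (Benjamini-Hochberg adjusted p of 0.05 over 137269 pairs of gene and clone; lowest adjusted p = 0.140). At an unadjusted p of 0.05, 13 were higher (6.5%) and 10 lower (5.0%), and DESeq2 called 0 higher and 2 lower, Abcc4 and Farp1 near Sox21. Over all tested genes edgeR called higher 0.208% in clone 16, 0.224% in clone 19, 0.024% in clone 20, 0.0641% in clone 24 and 0.0321% in clone 26, and lower 0.0561%, 0.673%, 0.0%, 0.024% and 0.0% in the same order. At an unadjusted p of 0.05 the shares were 5.51%, 7.24%, 0.489%, 2.6% and 2.91% higher and 4.58%, 8.52%, 0.409%, 3.98% and 3.03% lower. DESeq2 called 1.43%, 0.825%, 0.024%, 0.176% and 0.256% higher and 0.833%, 2.39%, 0.0%, 0.521% and 0.272% lower. Each clone is 1 library, so these p-values set that library against the spread among the other 10. They hold no measure of the spread within a clone. The peak clone was the highest of the 11 in 29 of the 200 places, 14.5%, where over all tested genes clones 16, 19, 20, 24 and 26 were highest in 13.4%, 15.0%, 4.53%, 11.9% and 9.86%.

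By gene, those with an unadjusted p of 0.05 were 2 higher for Trp63, 2 higher for Pmel, 2 lower for Fbxl22, 2 higher and 2 lower for Lrrc15, 6 higher and 1 lower for Ly6a, and 1 higher and 5 lower for Sox21, of 20 each. Gpbar1, Npc1l1, Slc35e4 and Nfkbiz had 0 in either direction. The 2 higher genes of Trp63 and Lrrc15 are the same, Mb21d2 and Fam43a, since their windows overlap.

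The log2 fold change of the neighbours had a median of -0.03 and lay within 0.5 of 0 in 150 of 200 places. It ranged from -1.74 (Farp1, near Sox21) to 2.13 (Gsdmd, near Ly6a). The listed genes were picked for their high peak, so a larger fold change in them follows from the choice. In data simulated for clone 19 over 12479 genes, the raised genes were drawn from those with a mean of at least 5 CPM. Their spread followed the trend with level, without a spread of each gene's own. The test recovered 48 of 50 genes raised 4-fold, 18 of 50 raised 2-fold and 4 of 50 raised 1.5-fold. A gene of this kind raised 2-fold or less would thus mostly not be called. Recovery of neighbours at lower levels or with a wider spread was not tested.

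**Figure D3:**
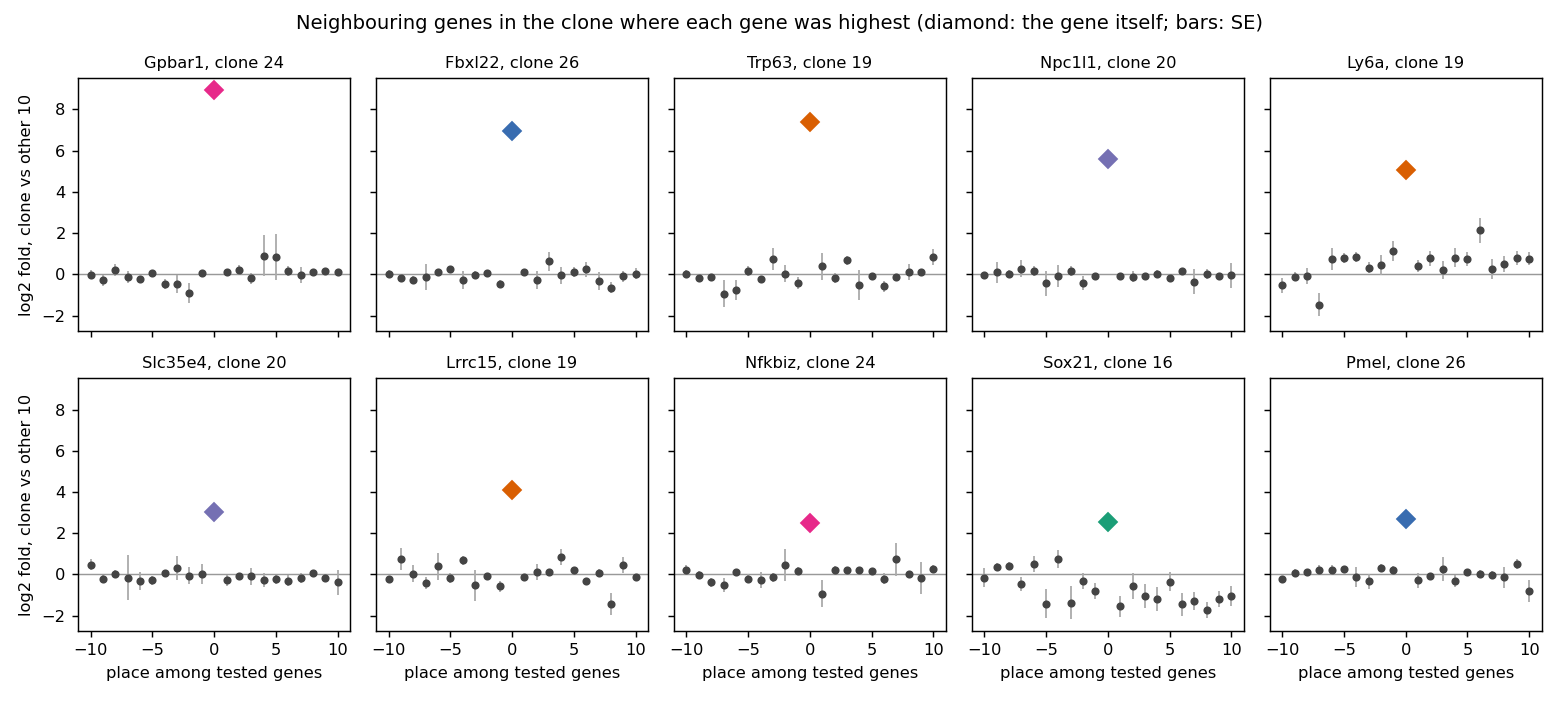
Log2 fold change (vertical) of the 10 nearest tested genes on each side of every listed gene in the clone where that gene was highest, against the other 10 clones, with bars of 1 standard error from the edgeR fit. The horizontal axis is the place in gene order and the diamond is the listed gene. The neighbours lie near 0 except around Ly6a, where most are above it, and Sox21, where most are below.

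The genes next to each listed gene follow, and any farther off (Catip, Cd63, Gsdmd, Farp1, Mb21d2 and Fam43a) were named after their values were seen. Around Gpbar1, the next tested genes are Arpc2 (144 CPM in clone 24 against 136 ± 13.0 in the other 10; mean ± SD), a subunit of the Arp2/3 actin complex, and Tns1 on one side and Aamp (218 against 202 ± 16.3) and Pnkd (47.8 against 41.4 ± 7.93) on the other. Their log2 fold changes were 0.08, -0.92, 0.12 and 0.21. Of the Gpbar1 neighbours 0 of 20 had an unadjusted p under 0.05. The largest was Catip, 4 places away, at 0.91, where clone 24 (23.95 CPM) lay below the highest of the other clones (45.2 CPM).

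Around Npc1l1 in clone 20, Nudcd3 (137 against 147 ± 6.03 CPM), Camk2b, Ddx56 (84.9 against 88.6 ± 6.53 CPM) and Tmed4 had log2 fold changes of -0.10, -0.41, -0.06 and -0.11. Around Slc35e4 in the same clone, Dusp18 (8.77 against 8.64 ± 3.22 CPM), 4921536K21Rik, Tcn2 (55.9 against 68.5 ± 13.5 CPM) and Pes1 had values of 0.02, -0.05, -0.29 and -0.06. Npc1l1 and Slc35e4 lie on chromosome 11 with 49 genes of the table between them. Of the 44 tested among these, 0 were called and 0 had an unadjusted p under 0.05 in either direction in clone 20, by edgeR, and their median log2 fold change was -0.11. Outside the listed genes, edgeR called Fbxo25 higher in clone 20, an F-box gene on chromosome 8, at 54.9 CPM against 18.4 ± 3.56 (log2 fold change 1.57 ± 0.24 SE, edgeR adjusted p = 0.0231).

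Around Fbxl22 in clone 26, clone 26 had the lowest Herc1 level of the 11, 83.9 CPM (others 114 ± 13.7; log2 fold change -0.44). Ciao2a, Usp3 (31.9 against 29.6 ± 1.98 CPM) and Aph1b had 0.08, 0.11 and -0.27. Herc1 overlaps Fbxl22 on the opposite strand, and no source used here says whether counting used strand. Around Pmel, the cell cycle kinase gene Cdk2 (187 against 159 ± 20.1 CPM) and Dgka (51.3 against 62.1 ± 18.5 CPM) overlap it on the opposite strand, and had 0.24 and -0.28. Rab5b and Pym1 followed with 0.31 and -0.07. Cd63, a tetraspanin that sorts Pmel into melanosomes and lies 9 tested places from it, was highest in clone 26 (149 against 104 ± 17.5 CPM; 0.52 ± 0.23 SE, edgeR adjusted p = 0.819).

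Around Nfkbiz in clone 24, Cblb, Dubr, Nxpe3 (11.3 against 21.7 ± 10.3 CPM) and Cep97 had log2 fold changes of 0.15, 0.45, -0.93 and 0.22, and 0 of 20 neighbours had an unadjusted p under 0.05. Around Trp63 in clone 19, Lpp (80.4 against 108 ± 21.6 CPM), Bcl6, Il1rap and Ccdc50 had -0.42, 0.04, 0.39 and -0.18. Untested genes that lie closer to Trp63 are Tprg, Cldn1, Cldn16 and Tmem207, with 0 counts in clone 19, and P3h2 with 2. These genes were thus under the floor in the clone where Trp63 had 693 reads. Trp63 and Lrrc15 are separated by 18 genes of the table on chromosome 16, of which 6 were tested. Of these 0 were called in clone 19 by edgeR, 1 was higher and 0 lower at an unadjusted p under 0.05, and their median log2 fold change was -0.13.

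Around Lrrc15 in the same clone, Hes1, a Notch target, was the lowest of 11 clones (41.4 against 61.7 ± 10.96 CPM) and so was Atp13a3 (208 against 229 ± 12.4). With Opa1 and Tmem44 their log2 fold changes were -0.58, -0.14, -0.07 and 0.11, in the order named.

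Untested genes, too low for the fit, gave the 2 exceptions. They were singled out after their values were seen. Among the 5 nearest genes of the table on each side of every listed gene (100 places, 34 of them untested), 2 were at least 2-fold above every other clone in the peak clone. One was Cpn2, which encodes a subunit of carboxypeptidase N and is the next gene to Lrrc15. It had 38 reads in clone 19 (2.19 CPM) and 0 to 4 in the others. The other was Ly6c1, the next gene to Ly6a and its paralogue, with 74 reads in clone 19 (4.27 CPM) and 0 to 5 in the others. Ly6a and Ly6c1 are similar in sequence, and no source used here says how shared reads were assigned. On the other side of Ly6a, Ly6i had 0 reads in clone 19, and on the other side of Lrrc15, Gp5 had 3.

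The neighbourhood as a whole was summarised by the median over the 20 neighbours of log2(CPM + 1) against each gene's median clone. For Trp63, Gpbar1, Fbxl22, Npc1l1, Slc35e4, Lrrc15, Pmel and Nfkbiz this median was -0.08 to 0.07 in the peak clone. Ly6a had 0.67 in clone 19, the highest of the 11, with 0.43 in clone 17, 0.23 in clone 16 and -0.16 to 0.01 in the other 8. Sox21 had -0.75 in clone 16, the lowest of the 11, with -0.69 in clone 17, -0.64 in clone 19 and -0.03 to 0.07 in the other 8. By an exact permutation test over the 11 clones (one-sided, higher) the smallest p possible is 0.0909, reached for Ly6a and Nfkbiz (0.455 after Benjamini-Hochberg adjustment over the 10 genes), so the design cannot pass 0.05.

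**Figure D4:**
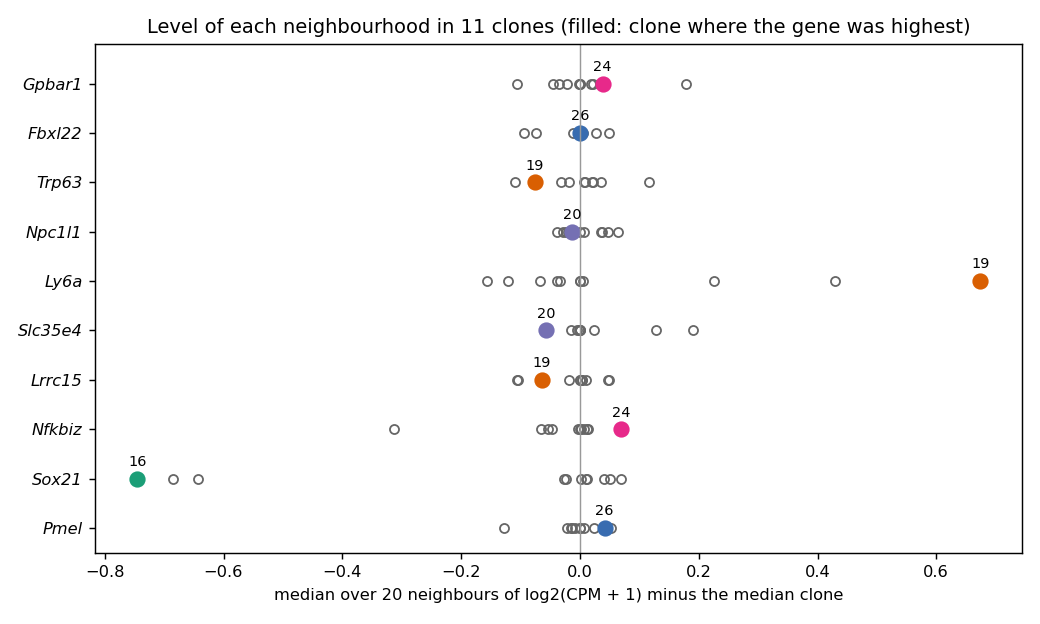
Median over the 20 neighbours of log2(CPM + 1) minus the median clone (horizontal) for each listed gene in the 11 clones. The filled point is the clone where the listed gene was highest, with its number. It lies at 0.67 for Ly6a and -0.75 for Sox21 and between -0.08 and 0.07 for the other 8 genes.

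Ly6a was the listed gene with the highest neighbourhood median. The 486 tested genes of chromosome 15 had a median of 0.30 in clone 19, the highest of the 11 clones, against -0.06 to 0.28 in the others. In its window 6 of 20 neighbours were higher and 1 lower at an unadjusted p of 0.05 (edgeR; 7.24% and 8.52% of all tested genes in clone 19). Among them were Ly6e, a paralogue and the nearest tested gene before Ly6a, (149 CPM against 68.3 ± 31.7; log2 fold change 1.13 ± 0.49 SE, edgeR adjusted p = 0.792) and the pore-forming gasdermin gene Gsdmd (26.8 against 6.12 ± 4.02; 2.13 ± 0.61 SE, edgeR adjusted p = 0.348). Clone 17 had Ly6e at 144 CPM, and Ly6a at 4.61 CPM, its second highest level. The nearest tested genes after Ly6a, Zfp41 and Top1mt, had 0.40 and 0.79, and Ly6k, before it, 0.47. The level of Ly6a in clone 19 was 33.0 times the mean of the other 10, and the window's median of 0.67 on the log2 scale is given beside it for scale. That median was 0.18 with 25 genes on each side, and 0.18 with no filter on low counts. The part of the chromosome-wide shift in the level of Ly6a was not tested.

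Around Sox21 the neighbours had lower values in the clone where Sox21 was highest. Its neighbours Abcc4 (63.5 CPM in clone 16 against 186 ± 50.6) and Gpr180 (8.51 against 14.9 ± 3.65) had log2 fold changes of -1.55 ± 0.49 and -0.81 ± 0.40 (SE), and Tgds and Dzip1 had -0.32 and -0.55. In its window 1 of 20 neighbours was higher and 5 were lower at an unadjusted p of 0.05 (edgeR; 5.51% and 4.58% of all tested genes in clone 16). The lowest was Farp1, at -1.74 ± 0.39 SE (edgeR adjusted p = 0.140; DESeq2 adjusted p = 0.000435). Clones 17 and 19, whose neighbourhoods were low to a like degree, had Sox21 at 18.4 and 14.1 CPM, the latter the lowest of the 11.

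Other genes of each pathway or family were then read in the peak clone, those with an unadjusted p under 0.05, and Col17a1, Perp and Krt8, being named after their values were seen. Of 223 genes named in 10 lists, 222 were in the table and 142 were tested. Of the 142, 0 were called in either direction by edgeR, with 8 higher (5.63%) and 10 lower (7.04%) at an unadjusted p under 0.05. Over all tested genes these shares were 0.489% to 7.24% higher and 0.409% to 8.52% lower in the 5 clones. Ly6e and Cd63 are among these 8 and also among the higher neighbours given above, so the counts overlap. DESeq2 called 2, named below. For Gpbar1, 6 of 17 genes of bile acid sensing and transport were tested, and their median log2 fold change in clone 24 was -0.48 (-0.02 over all tested genes). The sphingosine phosphate receptor gene S1pr2 stood at 28.3 against 31.2 ± 5.77 CPM and Fgfr4 at 11.8 against 11.5 ± 2.74. The 11 untested genes, which include the nuclear bile acid receptor gene Nr1h4, were at most at 0.504 CPM in clone 24.

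For Npc1l1, 15 of 18 genes of sterol uptake and export were tested in clone 20, with a median of -0.04 (-0.01 over all genes) and 0 at an unadjusted p under 0.05. Srebf2, the master factor of sterol synthesis, was at 316 against 362 ± 103 CPM, and Npc2 at 358 against 352 ± 80.9. For Slc35e4, 19 of 22 family members were tested, with a median of 0.01. Slc35e1 was at 95.1 against 96.5 ± 13.3 CPM and Slc35a4 at 70.05 against 68.5 ± 3.71, while Slc35f5 was the highest of 11 clones (55.9 against 31.6 ± 8.45; edgeR adjusted p = 0.719). For Fbxl22, 20 of 23 F-box and SCF genes had a median of -0.01 (-0.04 over all genes), with Skp1a at 172 against 163 ± 26.5 CPM and Kdm2a at 160 against 153 ± 16.8.

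For Trp63, 22 of 26 genes of the p63 family and its epithelial targets were tested in clone 19, with a median of 0.0016 (-0.03 over all genes). Trp53 was at 463 against 391 ± 38.3 CPM and the integrin gene Itga6 at 218 against 237 ± 23.3. Tfap2c, which encodes a factor of trophoblast and epidermis, was the highest of 11 clones at 76.3 against 45.4 ± 9.83 CPM (edgeR adjusted p = 0.649). The stratifin gene Sfn and the Notch ligand gene Jag2 were the lowest of 11 clones in clone 19, at 1.44 against 5.81 ± 2.36 and 6.12 against 14.6 ± 4.37 CPM (edgeR adjusted p = 0.573 and 0.683). The basal keratinocyte keratins Krt5 and Krt14, known as p63 targets, were under the floor in clone 19. Krt5 was at 0.115 CPM and Krt14 at 0.0577. Krt15, a keratin of the keratinocyte marker list, had 5 counts there (0.289 CPM, where the floor is 0.173), its highest of the 11 clones. It was named after its values were seen. Other epithelial genes of the list had their highest level there without an unadjusted p under 0.05, namely the hemidesmosome gene Col17a1 (6.70 against 3.71 ± 1.505 CPM), the desmosome gene Perp (6.64 against 3.47 ± 1.4) and the simple-epithelium keratin Krt8 (34.6 against 17.7 ± 7.88). Further epithelial genes of the list were lower in clone 19 than the mean of the other clones. Among these were Itgb4 (10.7 against 16.8 ± 7.45 CPM), Dsp (26.4 against 34.5 ± 10.6) and Grhl3 (17.3 against 24.7 ± 3.96), the last the lowest of 11 clones. These too were named after their values were seen. The keratinocyte marker list summed to 11.95 CPM in clone 19 and 10.9 to 18.8 CPM over the 11 clones.

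For Ly6a, 7 of 25 family members were tested in clone 19, led by Cd59b (77.8 against 99.5 ± 10.4 CPM) and Ly6e. Ly6g6d, which lies away from this cluster, was at 0.404 CPM against 2.96 ± 0.789 (edgeR adjusted p = 0.0775; DESeq2 adjusted p = 0.00462). Ly6g6e was also the lowest of 11 clones (22.3 against 41.03 ± 7.83 CPM; edgeR adjusted p = 0.493). With no filter on low counts Ly6c1 was called (edgeR adjusted p = 0.0113). For Lrrc15, 12 of 24 leucine-rich repeat genes had a median of 0.06, with Lrrc8d at 186 against 229 ± 22.3 CPM and Lrig2 at 80.6 against 103 ± 14.9. Lrtm2 was the highest of 11 clones (3.70 against 0.900 ± 0.581) and the volume-regulated anion channel gene Lrrc8a the lowest (30.8 against 42.05 ± 4.07), with edgeR adjusted p of 0.506 and 0.647. Lrig1, a negative regulator of growth factor receptors, was at 67.3 against 47.02 ± 2.97 CPM (0.52 ± 0.12 SE; edgeR adjusted p = 0.159; DESeq2 adjusted p = 0.0044).

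For Nfkbiz, 20 of 26 NF-kB factors, inhibitors and targets had a median of -0.24 in clone 24 (-0.02 over all genes), with 0 higher and 3 lower (15%) at an unadjusted p under 0.05, where all tested genes gave 2.6% higher and 3.98% lower. The kinase gene Ikbke was at 1.20 against 4.88 ± 1.83 CPM, Tnfaip3 at 0.756 against 2.27 ± 0.896 and Nfkbil1 at 8.13 against 12.9 ± 1.92 (edgeR adjusted p = 0.560 to 0.788). Icam1 was at 177 against 180 ± 34.2 CPM and Chuk at 152 against 126 ± 16.7. For Sox21, 9 of 19 Sox genes were tested in clone 16. Sox2 was the highest of 11 clones at 1062 against 823 ± 47.1 CPM (0.37 ± 0.11 SE) and Sox12 the lowest at 32.05 against 47.9 ± 5.20 (-0.58 ± 0.18 SE), with edgeR adjusted p of 0.410 and 0.451.

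For Pmel, 12 of 23 melanosome and pigment cell genes were tested in clone 26, with a median of 0.14 (-0.04 over all genes). Ap3b1 was at 294 against 256 ± 27.5 CPM and Kit at 149 against 128 ± 58.2. The cation channel gene Trpm1, known from melanocytes, was the highest of 11 clones at 110 against 37.5 ± 19.6 CPM (1.56 ± 0.62 SE; edgeR adjusted p = 0.720), while Rab27a, which tethers melanosomes for transport, was the lowest at 10.98 against 19.99 ± 4.64 (edgeR adjusted p = 0.810). Mitf, the master factor of the lineage, was at 101 against 104 ± 19.99. Bace2, the protease that cleaves Pmel into its fibril-forming part, had 24 reads in clone 26, 1 in clones 17 and 25 and 0 in the other 8. It was too low for the fit, was singled out after its values were seen, and was called with no filter on low counts (edgeR adjusted p = 0.00485). The defining pigment genes Tyrp1, Dct and Tyr were at 0, 0.07 and 0.769 CPM in clone 26, and the melanocyte list summed to 104 CPM there, below the highest clone at 138.

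The genes whose pattern was most like each listed gene were found by Pearson's r of log2(CPM + 1) over the 11 clones. These r values rest mainly on the peak clone and are a description. For Gpbar1 they were Rtl9 on chromosome X (0.998; 13.9 CPM in clone 24 against 0.0826 ± 0.0759), the neuropeptide gene Npw on chromosome 17 (0.986; 10.5 against 0.162 ± 0.136) and Slc44a4 (0.961), and the same 3 led for Nfkbiz (0.909 to 0.973). For Fbxl22 they were a gene without a symbol, ENSMUSG00000091674 (0.995; 12.5 CPM in clone 26 against 0.0263 ± 0.0344), Stat2 (0.926) and Trim30a (0.905). Npc1l1 and Slc35e4 both had Fbxo25 (0.917 and 0.931), Sirt5 and Chaf1a. For Pmel they were Nde1, Gm8420 and Zfp28 (0.914 to 0.928).

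The 3 genes of clone 19 had separate lists. These were Zswim5, Ffar3 and Npas2 for Trp63 (0.932 to 0.956), Catsperd, Gpnmb and Aspa for Ly6a (0.960 to 0.963), and Zfp358, Pdlim4 and Dio3 for Lrrc15 (0.942 to 0.979). Gpnmb, the closest relative of Pmel, was at 18.3 CPM in clone 19 against 1.24 ± 0.766. For Sox21 the leading genes Capza1, Ube2d3 and Selenof (0.944 to 0.971) lie on chromosome 3, which as a whole had a median of 0.53 in clone 16 against -0.02 to 0 in the other 10, and Sox21 lies on chromosome 14. Leading genes of the other 9 with a known position also lay on chromosomes other than that of the listed gene.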

How the data were processed

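The deposited values are whole-number read counts per gene, 1 library for each of 11 clones. Per the submitters' processing notes the authors used TopHat 1.4.0 and Bowtie 0.12.7. No source used here gives the counting tool, its strand setting or its treatment of multiply matching reads. Besides Fbxl22 and Pmel, Trp63 overlaps the processed pseudogene Gm27005 on its own strand and the snRNA gene Gm24928 on the opposite strand. Sox21 overlaps the lincRNA gene Gm4675 on the opposite strand. None of these overlapping genes is among the counted genes, and their part in the counts was not tested. Gene IDs were paired with symbols for 20777 of 22369 rows, and gene order came from GENCODE on GRCm38, a newer build than the mm9 of the notes, so no gene coordinates are given from it.

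A mean of 1 CPM or more over the 11 clones was required (12479 genes kept). Each clone was tested against the other 10 with the quasi-likelihood test of edgeR 4.0.16 in R 4.3.3 (TMM scaling, common biological coefficient of variation 24.8%), with Benjamini-Hochberg adjustment over 137269 pairs of gene and clone and a threshold of 0.05. A pseudocount of 1 CPM was used for neighbourhood medians and correlations. Intervals are exact Poisson at 95% and cover counting error only. The fit was tested on simulated data. Alternatives were DESeq2 1.42.0, no filter, windows of 5 and 25 genes, and leaving out each other clone. The listed genes, pathway lists and marker lists were chosen with earlier results of these data known. Genes were named by rule: the nearest 2 tested genes on each side and up to 4 called neighbours, up to 3 called genes and the 2 with the highest mean CPM of each list, the 3 most like each listed gene by Pearson correlation, and the 5 genes on each side of the lowest ratio. Since 0 neighbours and list genes were called, other names were chosen after their values were seen, as said where they appear.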

Additional observations from a re-analysis of the deposited data

How the results depend on the processing

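The ratio of highest to second highest clone moved by less than its counting interval under total-count CPM and DESeq2 size factors for all 10 genes, both tried after seeing the data, and leaving out each other clone in turn left the counts of called neighbours and list genes at 0. No paired analysis was possible because the clones form 1 group with no shared replicate numbers. With no filter on low counts the neighbourhood median was 0 for Trp63 and Lrrc15, 0.18 for Ly6a and -0.43 for Sox21. With 25 genes on each side it was 0.18 for Ly6a and 0.0056 for Lrrc15, and with 5 it was -0.082 for Npc1l1. With no filter 1 neighbour of Ly6a was called higher (Ly6c1), and with 25 genes on each side 1 of Pmel (Stat2, 67.4 CPM against 42.3 ± 2.22, edgeR adjusted p = 0.0390). In the lists, DESeq2 called 1 gene for Ly6a (Ly6g6d) and 1 for Lrrc15 (Lrig1), and with no filter 1 was called for Ly6a (Ly6c1) and 1 for Pmel (Bace2). The 68 genes with a ratio at least that of Pmel became 23 at a mean of at least 5 CPM. All 10 listed genes were kept in that count, although Gpbar1, Npc1l1, Fbxl22 and Trp63 had means of 2.69 to 3.85 CPM. On total-count CPM the 68 became 80, where the ratio of Pmel itself was 2.56. Both alternatives were chosen after seeing the data. The cause of these shifts was not tested, beyond the number of genes each setting admits. One library per clone and the floor of 3 counts limit what the low genes can show.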
